A study of Mus musculus with 3 samples.

Results

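Potassium channel genes were described in left ventricle of mouse heart on 3 arrays: all genes whose mouse symbol starts with Kcn, further letters and a number. This rule found 97 genes, each with 1 probe set, among 23740 probe sets with a symbol and 25206 in all. Of the 97, 93 encode channel subunits, pore-forming or auxiliary, and 4 are RNAs that carry a channel gene's name but encode no subunit (Kcnq1ot1, Kcnmb4os1, Kcnmb4os2 and Kcnd3os). All 3 groups were male C57BL/6N mice of 8 to 12 weeks with an osmotic pump under the skin, and the ventricles were collected at day 14. Control mice had vehicle in the pump and saline injections. Iso mice had vehicle in the pump and isoproterenol, a beta-adrenergic agonist, injected into the peritoneum at 50 mg/kg per day for 11 days. Iso+Insl6 mice received the same isoproterenol with INSL6 protein, an insulin-like peptide related to relaxin, infused from the pump in place of vehicle (50 to 70 nmol/kg per day). Each array was hybridised with 3 RNA samples pooled, so there is 1 array per group, no error between animals and no test of any difference.

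Potassium channels let potassium leave the cell and so end the action potential and hold the resting potential. In mouse ventricle the fast transient outward current, carried by Kcnd2 and Kcnd3 proteins with the auxiliary subunit Kcnip2, and delayed rectifiers such as Kcna5 do most of the repolarisation. Inward rectifiers set the resting potential. Reduced transient outward current and longer action potentials are a known trait of overloaded and failing hearts.

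Levels are the deposited log2 values, and 1 unit is a 2-fold difference. Values on the arrays ran from 0.44 to 12.45, and the median of all values, 4.16, served as the level to exceed. Probe sets differ in how they respond to RNA, so a listed level places a gene above or below 4.16 but does not order genes by their amount of RNA. A left ventricle sample holds several cell types, and in bulk RNA fewer cells of a type and less RNA per cell cannot be told apart. All 8 heart muscle cell markers stood above 4.16 on every array, with mean levels of 11.72, 11.75 and 11.73 on Control, Iso and Iso+Insl6. Of the 6 atrial and conduction markers, 3 stood above 4.16 on each array (Nppa, Tbx3 and Hcn4). Myl7 (2.67), Sln (1.93) and Myl4 (3.87, 3.87 and 3.60) stood below it on every array. Of the marker lists, that of liver had the largest difference in mean level between arrays: all 7 measured stood above 4.16 on every array, with mean levels of 6.39, 6.29 and 8.72. The clock gene Arntl stood at 7.07 on Control, 4.11 on Iso and 4.08 on Iso+Insl6. Several cardiac potassium channel genes are known to follow a daily rhythm, the hours of collection are not given in the sources used here, and the part of the clock or of liver RNA in the values below was not tested.

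Of the 97 members 40 exceeded 4.16 on Control, 39 on Iso and 37 on Iso+Insl6, which is 41.2%, 40.2% and 38.1%. Among all genes 51.0% did on Control, 51.1% on Iso and 51.0% on Iso+Insl6. The members above 4.16 on every array numbered 37, those above on at least 1 array 42, and those below on all arrays 55; of all genes 50.1% were above on every array. Pore-forming subunits of the inward rectifier family were above on every array in 8 of 15 cases, the Kv2 to Kv4 families in 5 of 9, the calcium- and sodium-gated families in 4 of 8, and the Kv1 family in 3 of 8. The KCNQ family had 2 of 5, the K2P family 5 of 14, the silent Kv subunits 3 of 10, the auxiliary subunits 5 of 16 and the EAG family 1 of 8. A total of 5 members crossed 4.16 between arrays. Kcna1 (4.46, then 3.96 on both treated arrays) and Kcnd1 (4.19, 3.83 and 3.80) exceeded it on Control alone, Kcns3 (3.93, 4.29 and 3.93) and Kcng1 (3.60, 4.25 and 3.85) on Iso alone, and Kcna7 exceeded it on Control (4.24) and stood exactly at 4.16 on both other arrays. By the mean over arrays, the members just above the level included Kcna7 (4.19) and Kcnj12 (4.26), and the 3 just below were Kcna1 (4.13), Kcns3 (4.05) and Kcnab1 (4.04).

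**Figure D1:**
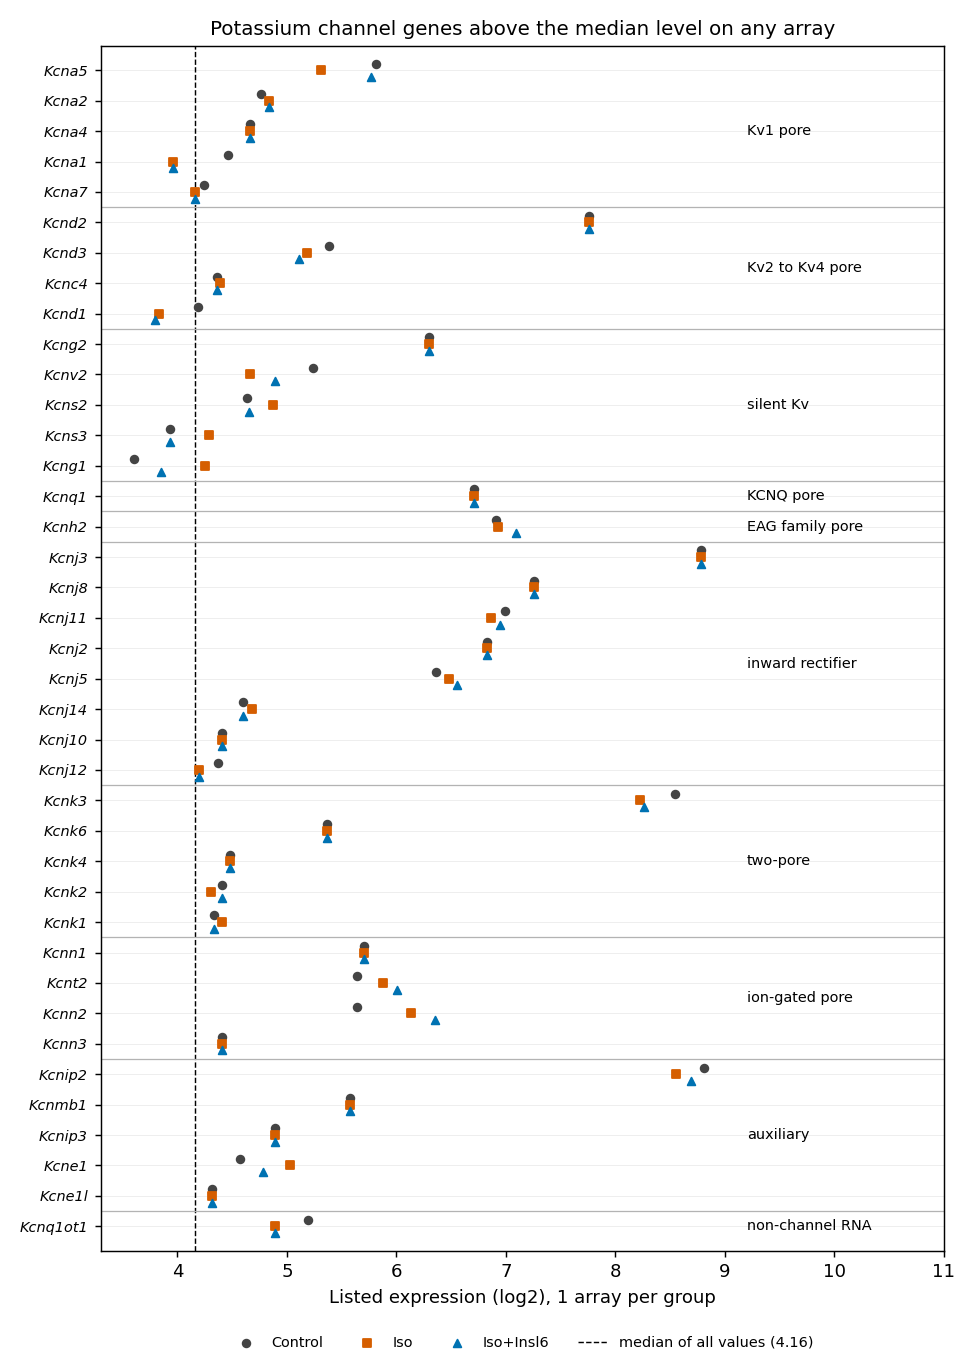
Listed log2 expression of 39 of the 42 potassium channel genes above the median of all values (dashed line, 4.16) on at least 1 array, by subunit class; each symbol is 1 array of pooled RNA, and there are no error bars because each group has 1 array. Kcnd2, Kcnj2, Kcnj3, Kcnj8 and Kcnq1 show 3 symbols at the same value, while Kcna5, Kcnv2, Kcnn2 and Kcne1 show them apart.

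Differences between arrays were small for nearly every member. Of the 42 members above 4.16 on the higher of Iso and Control, 1 was at least 1.5-fold higher on Iso (2.38%) and none was at least 1.5-fold lower. Among all 12254 genes tested that way, 0.849% were higher and 1.02% lower by that much, 1.87% in either direction, so the members' count stood near the background. Iso+Insl6 against Iso gave 0 of 39 members, where 2.01% of all genes passed (1.5% higher and 0.504% lower). Iso+Insl6 against Control gave 1 of 40 members, 2.5%, where 2.77% of all genes passed (1.98% higher and 0.791% lower). The median difference was 0.00 for members and for all genes in each comparison. These 3 comparisons share arrays, so none is independent of the others.

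Many values were listed as identical to 2 decimals. Of the 42 members above 4.16 on any array, 15 had the same value on all 3 arrays (35.7%), against 42.3% of all genes at that level. The authors summarised probes with RMA, which as published uses medians over probes, and an identical listed value does not show that the RNA amounts were equal.

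Smaller differences were more frequent among the members than among all genes on Iso against Control. At a log2 difference of 0.3 (1.23-fold), a threshold chosen after the data were seen, 10 of 42 members (23.8%) passed, 4 higher and 6 lower, beside 7.59% of all genes, 3.65% higher and 3.94% lower. A member that exceeded 4.16 through its higher array alone had to differ, and among the 37 above on every array 6 passed (16.2%, beside 6.46% of all such genes). These 6 include Kcnq1ot1, which encodes no subunit and lay exactly at -0.30, as it did for Iso+Insl6 against Control. Of Iso+Insl6 against Iso 3 of 39 members passed (7.69%), 1 higher and 2 lower, beside a background of 6.2% (3.85% higher and 2.34% lower); both lower ones exceeded 4.16 on Iso alone, and among the 37 only 1 passed (2.7%, beside 4.54%). Of Iso+Insl6 against Control 6 of 40 passed (15.0%), 2 higher and 4 lower, beside 7.91% (4.69% higher and 3.22% lower), and 4 of the 37 (10.8%, beside 6.33%). Within the 37, for Iso against Control, 4 of 25 members with a mean level under 6 passed (16.0%, beside 6.15% of all such genes) and 2 of 12 from 6 upward (16.7%, beside 6.76%). With 1 array per group these shares have no test.

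**Figure D2:**
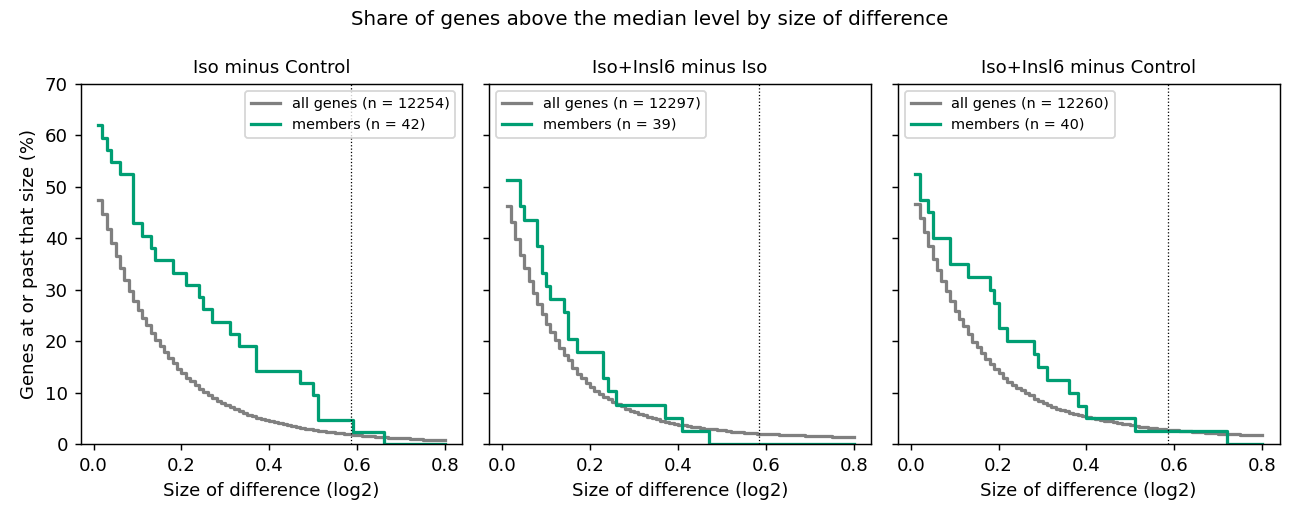
Share of genes (vertical axis, percent) whose difference is at or past each size (horizontal axis, log2), for potassium channel genes and all genes above 4.16 on the higher array, in each comparison; the dotted line is 1.5-fold. For Iso against Control the members' line runs above that of all genes at small sizes (23.8% against 7.59% at 0.3). Among genes above 4.16 on every array, not drawn apart, these shares are 16.2% and 6.46%. The line also runs above at 0.08, a size that was not planned, for Iso+Insl6 against Iso (38.5% against 27.2%) and Iso+Insl6 against Control (40.0% against 29.7%). It runs below at larger sizes, as at 0.47 for Iso+Insl6 against Iso (0.0% against 2.94%). The same holds at 0.51 for Iso+Insl6 against Control (2.5% against 3.6%). In each comparison no more than 1 member lies past 1.5-fold.

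Of the genes of the fast transient outward current, Kcnd2 was listed with the same value throughout, while Kcnip2 and Kcnd3 stood lower on Iso than on Control. Kcnd2, which encodes the pore subunit Kv4.2, was listed at 7.76 on Control, Iso and Iso+Insl6. Kcnip2, the calcium-binding protein that brings Kv4 channels to the membrane, stood at 8.81 on Control, 8.55 on Iso and 8.69 on Iso+Insl6. Iso was the lowest of the 3 arrays, 1.2-fold below Control, and Iso+Insl6 lay between them; 9.55% of all genes differed as far between Iso and Control. Kcnd3, the second Kv4 pore gene of ventricle, stood at 5.38, 5.18 and 5.11, with both treated arrays below Control. Iso lay 1.15-fold below Control, and 13.7% of all genes differed as far. For Iso+Insl6 against Control 9.46% did. Kcna4, which carries the slow transient outward current of the septum, was listed at 4.66 on every array. Kcnd1, a Kv4 gene with little known part in ventricle, was 0.36 lower on Iso, where it stood below 4.16, and the bound against that level is only 1.02-fold. Kcnd1 passed 4.16 only through Control, so its direction is set by that filter.

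Kcna5 encodes Kv1.5, the pore of a rapidly activating delayed rectifier of mouse ventricle, and had the largest difference of any member above 4.16 for Iso+Insl6 against Iso. It stood at 5.81 on Control, 5.31 on Iso and 5.77 on Iso+Insl6. Iso alone was low, 1.41-fold below Control and 1.38-fold below Iso+Insl6, and Iso+Insl6 lay 0.04 below Control. A difference as large was seen in 2.78% of all genes for Iso against Control and in 3.05% for Iso+Insl6 against Iso. Because Iso enters both comparisons, a low value on that array alone would give both differences.

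The start regions of Kcna5, Kcnip2 and Kcnd2 are printed because of their listed values. Kcna5 and Kcnip2 stood lower on Iso than on both other arrays, while Kcnd2, a pore partner of Kcnip2, was listed with the same value throughout. Each is the 250 bases before the RefSeq start site (GRCm38.p6, gene strand), at chr6:126535556-126535805 on the minus strand for Kcna5, chr19:45816064-45816313 on the minus strand for Kcnip2 and chr6:21215096-21215345 on the plus strand for Kcnd2. Capitals mark the GC box GGGCGG, which Sp1 and Krüppel-like factors can bind, searched on both strands.
Kcna5: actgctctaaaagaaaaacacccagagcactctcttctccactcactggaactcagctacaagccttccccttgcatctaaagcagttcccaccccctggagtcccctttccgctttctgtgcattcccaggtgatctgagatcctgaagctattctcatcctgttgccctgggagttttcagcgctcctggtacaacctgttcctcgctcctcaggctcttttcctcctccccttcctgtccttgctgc
Kcnip2: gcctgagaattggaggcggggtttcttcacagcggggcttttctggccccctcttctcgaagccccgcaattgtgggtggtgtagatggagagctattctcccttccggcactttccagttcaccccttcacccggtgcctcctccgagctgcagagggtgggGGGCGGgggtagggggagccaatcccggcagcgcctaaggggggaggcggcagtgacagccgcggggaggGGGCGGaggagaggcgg
Kcnd2: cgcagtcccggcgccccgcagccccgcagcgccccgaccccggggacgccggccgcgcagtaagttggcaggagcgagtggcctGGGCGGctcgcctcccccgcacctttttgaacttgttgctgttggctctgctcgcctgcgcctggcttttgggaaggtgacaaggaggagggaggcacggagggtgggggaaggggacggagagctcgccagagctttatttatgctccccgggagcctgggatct
The Kcnip2 window holds 2 GC boxes, which begin 87 and 17 bases before the start, the Kcnd2 window holds 1, beginning 166 bases before it, and the Kcna5 window has 0. GC content was 53.2% for Kcna5, 66.8% for Kcnip2 and 68.8% for Kcnd2, beside a median of 52.4% over 32851 windows of that length. A GC box was present in 32.7% of those windows. The E-box CACGTG of clock factors (6.02% of windows), the half-site TGACG of cyclic AMP response factors (17.8%) and the half-site TGTTCT of the glucocorticoid receptor (16.1%), also searched on both strands and free to share bases with one another, matched in none of the 3. Of the 97 members 71 have an entry in the table used. These are matches of letters within short windows and say nothing on binding.

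Silent Kv subunits form no channel alone but join the pores of other Kv channels and change their gating. Kcnv2, a silent subunit, stood at 5.24 on Control, 4.66 on Iso and 4.89 on Iso+Insl6. Both treated arrays were below Control, Iso by 1.49-fold, just short of 1.5-fold, and 1.95% of all genes differed as far. Kcng1, another silent subunit, was the only member past 1.5-fold for Iso against Control, with listed values of 3.60, 4.25 and 3.85 and a difference of 0.65. It exceeded 4.16 on Iso alone, and against that level it was only at least 1.06-fold higher. Kcns3 (3.93, 4.29 and 3.93) had the same form with a bound of 1.09-fold, and Kcns2 stood at 4.64, 4.87 and 4.65. Kcng1 and Kcns3 passed 4.16 only through Iso, so their direction is set by that filter. Kcng2 was listed at 6.30 on all arrays. Kcnc4, a gene of the Kv3 family of fast channels, stood at 4.36, 4.39 and 4.36.

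Of the other Kv1 genes, Kcna1, a channel of nerve known also in heart, stood at 4.46 on Control and 3.96 on both treated arrays. This is a listed difference of -0.50 and, against 4.16, at least a 1.23-fold lower level on each. Kcna1 passed 4.16 only through Control, so its direction is set by that filter. Kcna2 stood at 4.76, 4.84 and 4.84. The neuron and Schwann cell list had 2 of 7 markers above 4.16 on each array, among them Uchl1 (4.63, 5.05 and 5.14), and mean levels of 3.47, 3.65 and 3.60; S100b and Snap25 were below 4.16 on every array.

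The channels of the slower delayed rectifiers, which dominate in larger mammals and do little in adult mouse ventricle, differed mainly in an auxiliary subunit. Kcnq1, the pore of the slow current, was listed at 6.71 on every array. Kcne1, the small membrane protein that slows Kcnq1 channels, stood at 4.57 on Control, 5.03 on Iso and 4.78 on Iso+Insl6. Iso was highest, 1.38-fold above Control, and Iso+Insl6 lay between; 3.33% of all genes differed as far for Iso against Control. Kcnh2, the pore of the rapid current, stood at 6.91, 6.93 and 7.09, with Iso+Insl6 highest by 0.16 over Iso. Of the other Kcne genes, Kcne1l was listed at 4.32 and Kcne3 at 3.55 on all arrays. Below 4.16, Kcne2 stood at 3.26, 3.54 and 3.26, and Kcne4 at 3.98, 3.76 and 3.76. Kcnq1ot1, the long antisense RNA of the imprinted Kcnq1 locus, stood at 5.19 on Control and 4.89 on both treated arrays, a difference of -0.30 beside a flat Kcnq1.

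Inward rectifiers differed little between arrays. Kcnj2, the main pore of the resting inward rectifier, was listed at 6.83 on every array, and its relative Kcnj12 at 4.37, 4.20 and 4.20. Kcnj4, which can join them, was below 4.16 throughout (3.20, 3.28 and 3.20). Of the channels gated by ATP, Kcnj8, known from vascular smooth muscle, was listed at 7.26 on all arrays and Kcnj11, the pore of heart muscle cells, stood at 6.99, 6.86 and 6.95. The acetylcholine-gated pair, known best from atrium and pacemaker, gave 8.78 on all arrays for Kcnj3 and 6.36, 6.48 and 6.55 for Kcnj5. Kcnj10 was listed at 4.41 on all arrays, and Kcnj14 at 4.60, 4.68 and 4.60. Among the 8 members of this class above 4.16, differences for Iso against Control ran from -0.17 to 0.12, and 4 were identical, where 52.5% of all genes were. For Iso+Insl6 against Iso they ran from -0.08 to 0.09, with 5 identical (all genes 53.8%), and for Iso+Insl6 against Control from -0.17 to 0.19, with 5 identical (all genes 53.3%).

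K2P channels carry background potassium current. Kcnk3, the acid-sensitive TASK-1 of heart and lung vessels, stood at 8.54 on Control, 8.22 on Iso and 8.26 on Iso+Insl6. Both treated arrays lay below Control, Iso by 1.25-fold, and 6.83% of all genes differed as far. The other members of this class above 4.16 differed by no more than 0.10 in any comparison: Kcnk2, the stretch-sensitive TREK-1, stood at 4.41, 4.31 and 4.41, Kcnk1 at 4.33, 4.41 and 4.33, and Kcnk4 (4.48) and Kcnk6 (5.37) were listed with the same value throughout.

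Kcnn2 had the largest listed difference of any member above 4.16. This gene encodes SK2, a small-conductance channel opened by calcium and known mainly from atrium and nerve. It stood at 5.64 on Control, 6.13 on Iso and 6.35 on Iso+Insl6. Both treated arrays were above Control, Iso by 1.4-fold and Iso+Insl6 by 1.64-fold, and Iso+Insl6 was 1.16-fold above Iso. As large a difference was seen in 2.94% of all genes for Iso against Control and in 2.03% for Iso+Insl6 against Control. Kcnt2, a sodium-activated channel gene, had the same order at 5.64, 5.88 and 6.01, 1.29-fold higher on Iso+Insl6 than on Control. The remaining Kcnn genes did not share it: Kcnn1 was listed at 5.70, Kcnn3 at 4.41 and Kcnn4 at 4.01 on every array. The atrial and conduction list had 3 of 6 markers above 4.16 on each array and mean levels of 5.02, 5.07 and 5.19. Within it the pacemaker channel gene Hcn4 (4.55, 4.86 and 5.11) and Nppa (10.99, 11.19 and 11.72) stood in the same order as Kcnn2, while Tbx3 (6.09, 5.92 and 6.09) did not and Myl7, Sln and Myl4 were below 4.16 on every array. The part of such cells in the Kcnn2 values was not tested. The large-conductance pore gene Kcnma1 was below 4.16, listed at 2.44 on all arrays, while its smooth muscle beta subunit Kcnmb1 was listed at 5.58 on all arrays. Smooth muscle and pericyte markers were above 4.16 in 6 of 6 cases on each array, with mean levels of 7.40, 7.47 and 7.58.

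**Figure D3:**
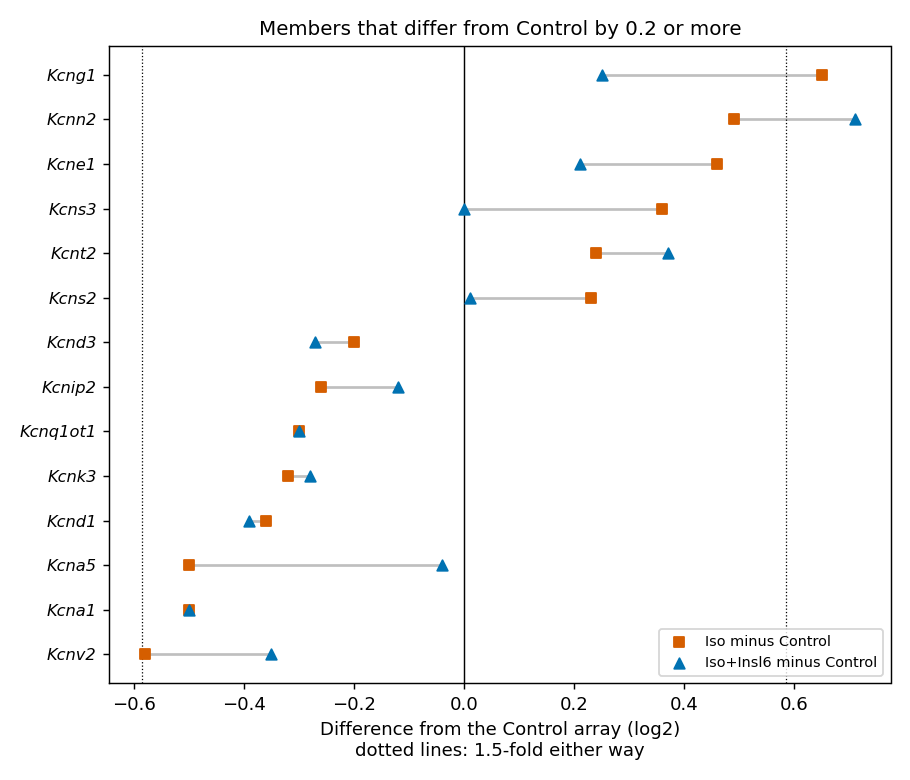
Differences from the Control array (horizontal axis, log2) for the potassium channel genes above 4.16 on at least 1 array that differ from Control by 0.2 or more on either treated array; squares are Iso, triangles Iso+Insl6, and dotted lines mark 1.5-fold. Kcna5 (-0.50 and -0.04) and Kcns3 (0.36 and 0.00) have triangles near 0, Kcna1 (-0.50 on both) and Kcnk3 (-0.32 and -0.28) have both symbols close together, and Kcnn2 (0.49 and 0.71) has its triangle farther out. Kcna1, Kcnd1, Kcng1 and Kcns3 each exceeded 4.16 on 1 array alone, so the direction of their squares is set by that filter.

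Remaining auxiliary subunits were flat or low. Kcnip3, a calcium-binding relative of Kcnip2 that also acts as a transcriptional repressor, was listed at 4.89 on all arrays. The Kv beta subunits Kcnab1 (4.02, 4.08 and 4.02) and Kcnab2 (3.75, 4.04 and 3.85) stood below 4.16 on every array. The 55 members below 4.16 on all arrays ran from 1.85 to 4.08, and 34 of them had the same value on each array. Identical values were as common elsewhere: at any level, 50.5% of the 97 members and 50.7% of all genes had them. Of the 55 members, 0 differed by 1.5-fold in any comparison. Among all genes below 4.16 on every array, 1.69% (Iso against Control), 2.22% (Iso+Insl6 against Iso) and 2.12% (Iso+Insl6 against Control) did. The largest listed differences among these 55 members were Kcnk13 at 0.49 for Iso against Control (3.43 and 3.92) and Kcnk15 at -0.45 for Iso+Insl6 against Iso (3.87 and 3.42). Kcnmb4 and the antisense RNA Kcnmb4os1 were both listed at 3.87 on every array; probe sharing between them could not be checked, so the antisense value may not be its own. Kcnd3os was listed at 3.75 on every array.

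Other genes of potassium channel complexes, 25 that are no members by name, were also mostly flat. Of the 19 above 4.16, 1 was at least 1.5-fold lower and 0 higher for Iso against Control, none differed so far for Iso+Insl6 against Iso, and 1 was higher for Iso+Insl6 against Control. Of all genes 1.02% were lower and 0.849% higher by that much in the first, and 1.98% higher in the last, so 1 gene of 19 is no more than a description. The one lower on Iso was Sgk1, a kinase that raises the surface level of several channels, at 5.92 on Control, 5.31 on Iso and 5.65 on Iso+Insl6. The one higher on Iso+Insl6 was Klf15, a Krüppel-like factor known to act on Kcnip2 in mouse heart, at 5.93, 6.25 and 6.57. Whether Klf15 had a part in the Kcnip2 values was not tested. Abcc9, the sulfonylurea receptor SUR2 of heart ATP-gated channels, stood at 10.43, 10.20 and 10.19, and Abcc8, the SUR1 receptor, at 6.42, 6.12 and 6.42. Irx3 (6.82, 6.82 and 6.80) and Irx5 (5.46, 5.47 and 5.46), the latter a repressor of Kcnd2 across the ventricular wall, hardly differed, and the Kv4 partners Dpp6 (2.36) and Dpp10 (1.93) were below 4.16 on every array. The anchoring proteins Akap9 (7.21 throughout), Akap5 (6.13, 5.97 and 6.02) and Dlg1 (7.78, 7.69 and 7.73) differed by no more than 0.16.

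**Figure D4:**
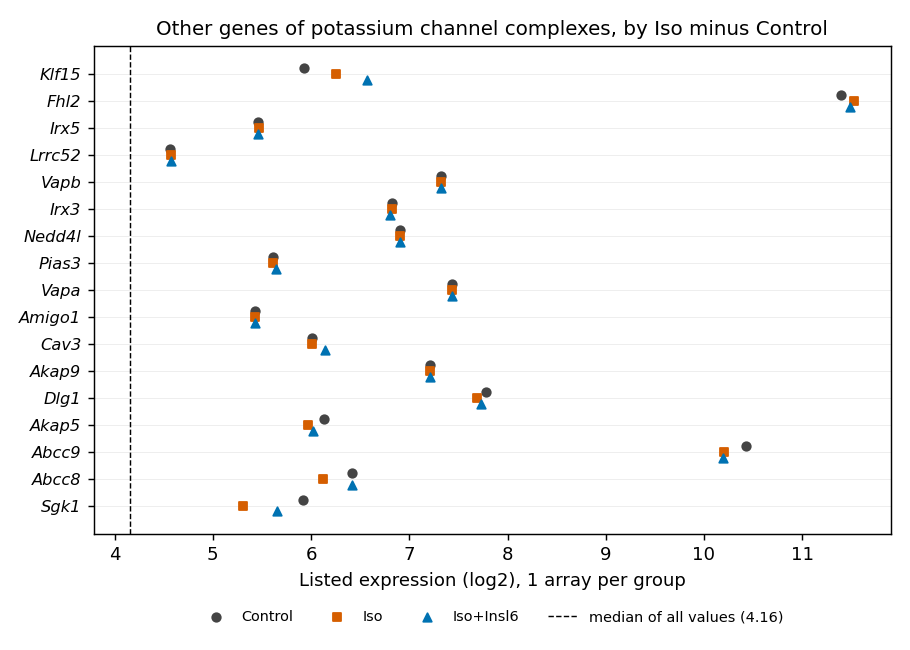
Listed log2 expression (horizontal axis) of 17 of the 19 other genes of potassium channel complexes above 4.16 (dashed line), ordered by Iso minus Control; each symbol is 1 array of pooled RNA, with no error bars. Sgk1 is lowest on Iso (5.31 against 5.92 on Control), Klf15 stands in the order Control, Iso, Iso+Insl6, and most others have their 3 symbols within a few hundredths.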

How the data were processed

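The values are the log2 expression of each probe set as the authors deposited it; per the submitters' processing notes it was computed by RMA in the affy package, version 1.36.1; the array type, settings and build behind the probe sets are not given in the sources used here. Probe sets carry an Entrez gene number, which was matched to symbols in RefSeq's table (GRCm38); 93 of 97 members also have a platform symbol and all 93 are equal. All columns matched a sample (0 left over).

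Differences of the listed log2 values were taken for 3 pairs of arrays and counted at 1.5-fold (log2 0.585) among genes whose higher array exceeded 4.16 (the median over all values), and over all 23740 named genes. Where the lower array lay at or below 4.16, a fold is a bound against that level. With 1 array per group nothing was tested, and the number of arrays limits the precision. Named were all members past 1.5-fold, up to 8 per direction and comparison, the highest on Control per class, a list of cardiac current genes and the 3 nearest either side of 4.16; Kcnc4, Kcnip3, Kcnj10, Kcnk4, Kcnk6, Kcne1l, the members that crossed 4.16 and those named below it were added after their values were seen. Some genes due to be named are left out of the text and plots but kept in the counts. Members and lists were chosen with earlier results of these data known. The counting was tested on simulated data, with planted differences of 2-fold or more in genes well above 4.16. That test does not cover smaller differences or genes near that level. Quantile and cyclic loess scaling used limma 3.58.1 in R 4.3.3, the rest python 3.11.15 with pandas 2.3.3.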

Additional observations from a re-analysis of the deposited data

How the results depend on the processing

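The number of members above the level on all arrays was 37, and 49 with the 95th percentile of olfactory, vomeronasal and keratin-associated genes (3.71) as the level. The share of all genes above 3.71 is not given here, so 49 has no background beside it. The counts at 1.5-fold were 1 (Iso against Control), 0 (Iso+Insl6 against Iso) and 1 (Iso+Insl6 against Control). At 2-fold the first and last became 0. With both arrays required above 4.16 the first became 0, since Kcng1 lay below it on Control. At a log2 difference of 0.3, chosen after seeing the data, they were 10, 3 and 6. The medians were 0.00; for Iso+Insl6 against Iso the median was -0.03 after quantile normalization and -0.04 with arrays centred on genes above 4.16, and for Iso+Insl6 against Control -0.03 with that centring, shifts close to those of all genes (-0.03, -0.04 and -0.03). Kcng1 (0.65 to 0.66) and Kcnn2 (0.68 to 0.71) kept their direction under each scaling. No paired analysis was possible because each group has 1 array, and none could be left out. Kcng1, Kcns3, Kcna1 and Kcnd1 lay under 4.16 on at least 1 array.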
